A study of Mus musculus with 54 samples.

Results

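Collagen genes were taken as every gene whose symbol reads Col, a number, the letter a and a number, on a probe set that carries 1 symbol. The rule gave 42 genes on 46 probe sets, out of 18759 gene symbols on the array. By the protein they encode, 11 were fibrillar collagens, 8 were basement membrane collagens and 23 were other collagens. RNA was measured on Affymetrix arrays in muscle, visceral white fat, subcutaneous white fat, liver, kidney, spleen and brain of C57BL/6 mice aged 14 weeks, all of 1 genotype with no transgene or other agent on the labels. Swim mice started at 11 to 12 weeks of age, were brought in over 9 days, with each daily session 10 min longer than the last, and then swam for 3 weeks in 2 sessions a day of 90 min, separated by 4 h of rest. Each tissue had 4 control and 4 swim arrays, except muscle with 3 swim arrays and liver with 3 control arrays, 54 arrays in all. The labels do not say what the control mice did during these weeks, the sex of the mice, which muscle or brain region was taken, or whether tissues came from the same animals. Nothing states that the arrays of a group are separate animals, so p-values measure the spread between these arrays, which may be technical.

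Collagens are secreted proteins whose chains wind into a triple helix. Fibrillar collagens assemble into the fibrils that carry tension in connective tissue, and in skeletal muscle types I and III make up most of the sheaths around fibres and bundles. Basement membrane collagens form the sheet on which epithelium, endothelium, fat cells and muscle fibres rest, with type IV as its network and types XV and XVIII at its border. The other collagens include the type VI microfilaments, collagens on the surface of fibrils such as types XII and XIV, and membrane-spanning chains. Fibroblasts are the main source of fibrillar chains, and endothelial, epithelial and mural cells also make type IV.

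Levels below are log2(deposited value + 16), so that differences of weak probe sets are understated, and compare arrays for the same gene only. The 8 skeletal muscle markers averaged 13.68 to 13.97 in the muscle arrays, and markers of fat, liver and kidney were likewise high in those tissues, but some arrays carried signal of other cells. In subcutaneous fat the mean of 6 B and T cell markers was 5.45 in control array 17 against 11.55 to 11.92 in the other control arrays, and it was 5.56, 9.30, 10.79 and 5.61 in the swim arrays. Swim array 22 of this fat read 13.11 for 4 kidney tubule markers, where its other arrays read 4.79 to 5.13, and swim array 23 read 9.65 for 8 skeletal muscle markers, where the others read 5.32 to 6.86. Control array 52 of liver read 9.07 for the skeletal muscle markers against 5.25 to 5.47 in the other liver arrays. The mean of 4 hepatocyte markers also varied among arrays outside liver, from 4.76 to 10.59 in the control arrays of spleen (highest in array 26), 5.43 to 9.11 in those of muscle (highest in array 42) and 5.83 to 8.16 in those of visceral fat (highest in arrays 1 and 2). No arrays of a group were identical. Array medians before normalization ran from 45.92 to 118.65 units of intensity, and the number of arrays limits the precision.

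The start regions of 4 of the collagens that differed between swim and control mice in muscle are shown because they show how unlike these genes' promoters are in base makeup. Each is the 250 bases before the start of the gene, 5′ to 3′ on the gene's own strand, from RefSeq on GRCm38.p6. Capitals mark TATAAA (the TATA box core), CCAAT (the CCAAT box core) or GGGCGG (the GC box core) on either strand; a match on the opposite strand appears as the reverse complement of these letters. Col3a1 lies at chr1:45311288-45311537 on the plus strand, Col5a1 at chr2:27886175-27886424 on the plus strand, Col5a3 at chr9:20815068-20815317 on the minus strand and Col15a1 at chr4:47207762-47208011 on the plus strand.
Col3a1: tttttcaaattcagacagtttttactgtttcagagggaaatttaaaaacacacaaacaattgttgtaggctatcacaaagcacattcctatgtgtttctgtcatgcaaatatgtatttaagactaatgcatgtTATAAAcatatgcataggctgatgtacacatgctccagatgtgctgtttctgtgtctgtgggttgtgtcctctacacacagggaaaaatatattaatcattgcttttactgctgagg
Col5a1: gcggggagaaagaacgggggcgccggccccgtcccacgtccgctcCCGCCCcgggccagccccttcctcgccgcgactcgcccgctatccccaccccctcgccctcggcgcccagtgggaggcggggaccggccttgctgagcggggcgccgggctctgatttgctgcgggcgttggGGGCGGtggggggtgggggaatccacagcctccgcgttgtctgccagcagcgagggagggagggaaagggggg
Col5a3: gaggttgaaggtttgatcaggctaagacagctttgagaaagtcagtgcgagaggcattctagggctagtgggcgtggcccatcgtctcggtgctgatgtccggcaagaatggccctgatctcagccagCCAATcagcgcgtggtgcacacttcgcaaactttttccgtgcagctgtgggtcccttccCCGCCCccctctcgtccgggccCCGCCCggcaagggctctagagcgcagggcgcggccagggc
Col15a1: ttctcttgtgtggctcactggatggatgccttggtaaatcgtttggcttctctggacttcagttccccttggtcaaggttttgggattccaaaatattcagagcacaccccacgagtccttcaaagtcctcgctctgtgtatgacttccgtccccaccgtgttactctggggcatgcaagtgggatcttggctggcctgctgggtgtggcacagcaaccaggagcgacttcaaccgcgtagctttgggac
G and C made up 35.2% of the Col3a1 window, 76.4% of the Col5a1 window, 62.8% of the Col5a3 window and 53.6% of the Col15a1 window, against a median of 52.4% over the table. Col3a1 held TATAAA at 117 to 112 bases before its start, Col5a1 held GGGCGG at 205 to 200 on the opposite strand and 73 to 68 on its own, and Col5a3 held CCAAT at 122 to 118 and GGGCGG at 63 to 58 and 41 to 36 on the opposite strand. The Col15a1 window held none of these letters. Of the 42 collagens, 34 had an entry; Col12a1, Col14a1, Col1a1, Col22a1, Col26a1, Col2a1, Col4a3 and Col5a2 had none. GGGCGG was in 20 of the 34 (58.8%) and in 32.7% of all 32851 windows of this length, CCAAT in 12 (35.3%) and 33.8%, and TATAAA in 5 (14.7%) and 12.4%. Among the 9 of these 34 that were lower in swim muscle, GGGCGG was in 5, CCAAT in 4 and TATAAA in 1. The starts of Col4a1 and Col4a2, the chains of the common type IV network, lie 21 bases apart on opposite strands of chromosome 8, and those of Col4a5 and Col4a6 lie 1343 bases apart on chromosome X.

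At rest, in the 27 control arrays scaled together, the chains of types I, III, V and VI and the basement membrane genes Col4a1, Col4a2 and Col15a1 were mostly highest in the fats and muscle. Col3a1, the only chain of type III collagen, averaged 10.20 ± 0.16 in visceral fat, 10.14 ± 1.26 in subcutaneous fat, 9.36 ± 0.19 in muscle, 7.22 ± 0.04 in liver, 7.17 ± 0.05 in spleen, 7.06 ± 0.17 in kidney and 4.90 ± 0.08 in brain (SD, n = 4, liver n = 3). Neighbours overlapped among the 3 highest tissues and among liver, spleen and kidney, while every brain array lay below the rest. In brain Col3a1, like Col1a1 and Col4a1, did not pass the filter on low signal, so no fold against brain is given. Muscle minus liver was 2.14 (SE 0.36, 4.41-fold, limma adjusted p = 1.53e-05), and muscle minus visceral fat was -0.84 (SE 0.34, limma adjusted p = 0.0336). Col1a1, the main chain of type I collagen, averaged 10.32 ± 1.33 in subcutaneous fat, 9.49 ± 0.40 in muscle, 9.34 ± 0.27 in visceral fat, 8.0 ± 0.14 in spleen, 7.42 ± 0.20 in kidney, 6.54 ± 0.21 in liver and 5.85 ± 0.19 in brain. Its arrays overlapped among the fats and muscle and in no other neighbouring pair. In subcutaneous fat, control array 17, which stands apart in its B and T cell markers, was the highest control array for both genes.

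Among basement membrane genes, Col4a1 averaged 10.14 ± 0.21 in visceral fat, 9.38 ± 0.79 in subcutaneous fat, 8.61 ± 0.10 in muscle, 8.37 ± 0.14 in kidney, 7.60 ± 0.21 in spleen, 7.03 ± 0.10 in liver and 5.82 ± 0.13 in brain. The fats overlapped each other, and muscle overlapped kidney (0.23 higher in muscle, SE 0.23, limma adjusted p = 0.389). Some chains were set apart in 1 tissue, with each of its control arrays above every other control array under all 4 scalings. Col4a3 and Col4a4, chains of the type IV network of the filtration barrier, averaged 8.41 ± 0.27 and 8.27 ± 0.20 in kidney and passed the filter on low signal in no other tissue, so no fold is given. Col18a1, the source of endostatin, averaged 9.97 ± 0.12 in liver, 3.60-fold above kidney. In visceral fat Col6a5, a type VI chain, averaged 8.84 ± 0.93, 5.01-fold above subcutaneous fat. Col6a5 read 9.775 and 9.505 in control arrays 1 and 2, the arrays high in hepatocyte markers, and 8.148 and 7.951 in control arrays 3 and 4. In the liver control arrays Col6a5 read 4.882, 5.356 and 4.853. The part of the hepatocyte signal was not tested. Col4a6 averaged 5.96 ± 0.08 in visceral fat and passed the filter in no other tissue. Col12a1, Col20a1, Col22a1 and Col2a1 were set apart in muscle under 2 of the 4 scalings and Col24a1 under 3, as was Col4a5 in kidney (1.25-fold above visceral fat); Col19a1, which passed the filter in no tissue for swim against control, was set apart in muscle under 2. Of these, Col12a1, a collagen on the surface of fibrils, averaged 7.29 ± 0.38 in muscle against 6.49 ± 0.09 in kidney.

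In a limma fit of the control arrays, 39 collagens were tested among 14920 genes, with calls at an adjusted p of 0.05. Against visceral fat 14 collagens were higher in muscle, where 29% of all genes tested were, and 11 were lower, where 33.7% of all genes were. Against subcutaneous fat 18 were higher (all genes 34.7%) and 6 lower (34.3%), and against liver 23 were higher (35.8%) and 4 lower (28.9%). Against kidney 25 were higher (34.8%) and 6 lower (30.5%), against spleen 31 were higher (38.6%) and 2 lower (35.4%), and against brain 34 were higher (41.5%) and 0 lower (32.2%). The median difference over the 39 collagens was -0.02 against visceral fat, 0.17 against subcutaneous fat, 0.41 against liver, 0.46 against kidney, 0.56 against spleen and 0.67 against brain, beside medians over all genes of -0.04, 0.00, 0.07, 0.07, 0.05 and 0.15. Fibrillar chains were higher in muscle in 11 of 11 against brain, 10 of 11 against spleen and kidney, 8 of 11 against liver, 5 of 11 against visceral fat and 4 of 11 against subcutaneous fat. Of the 8 basement membrane genes, 6 were lower and 1 higher in muscle against visceral fat, 4 were lower and 1 higher against kidney, and 3 were lower and 4 higher against subcutaneous fat. Against liver 5 of them were higher and 1 lower, and against spleen and against brain 6 were higher and 0 lower. The counts moved with scaling: with quantile normalization within each tissue, 7 collagens were higher in muscle than in either fat and 22 than in brain. The fit shares 1 spread over tissues although subcutaneous fat varied most. On simulated data the comparison with that fat called more unchanged than changed genes, so its calls are not reliable. Against liver 59 unchanged genes were called beside 178 changed ones, against brain 26 beside 179. Against visceral fat the numbers were 25 and 184, against spleen 20 and 184, and against kidney 11 and 178. The calls against liver, brain, visceral fat and spleen thus hold more unchanged genes than the threshold allows. With only the tissues compared in the fit, an alternative chosen after the data were seen, 16 were higher against subcutaneous fat. In the fit of all tissues without control array 17 of that fat, 22 were higher in muscle than in it.

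**Figure D1:**
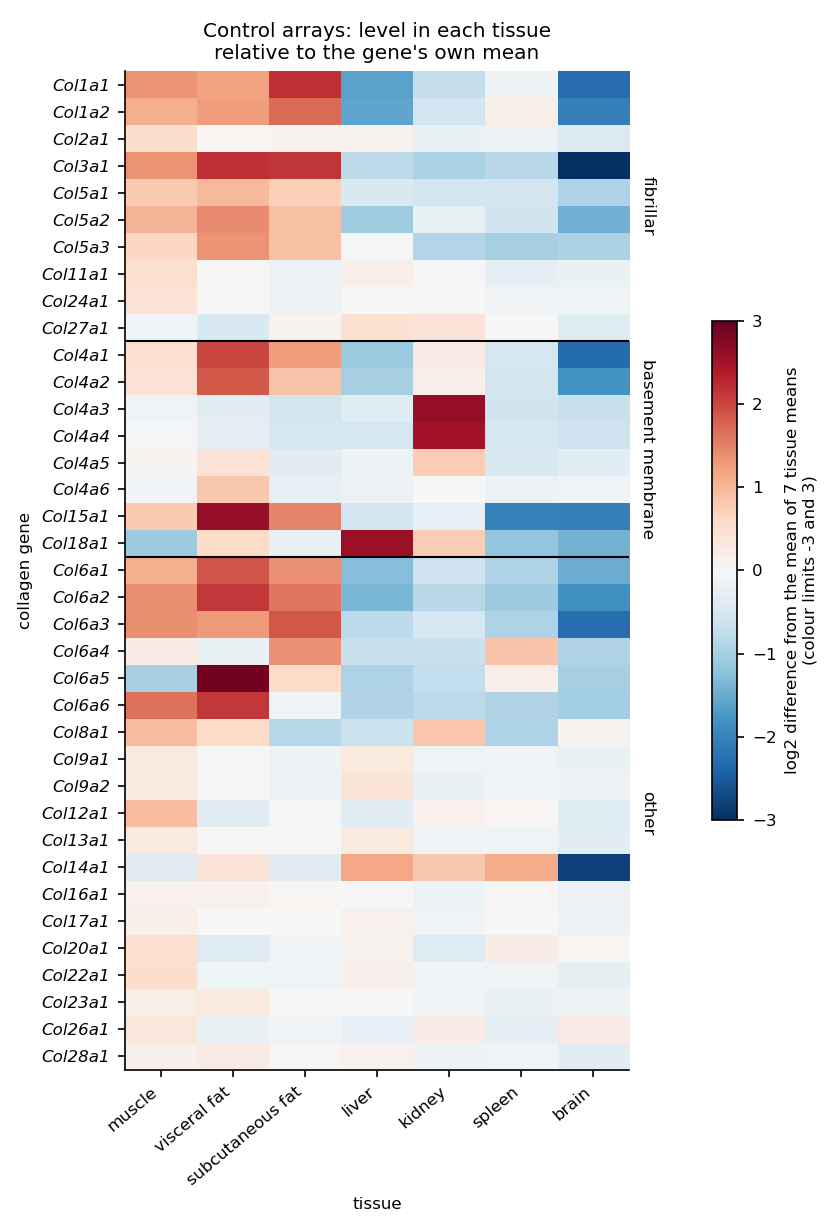
Level of the 37 collagens that passed the filter on low signal in at least 1 tissue, in the control arrays of 7 tissues (columns), as the log2 difference of each tissue mean from the gene's mean of 7 tissue means, with colour limits of -3 and 3. Rows for types I, III and V and for Col6a1 to Col6a3 are red in muscle and the fats, Col4a3 and Col4a4 are red in kidney and Col18a1 in liver.

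In muscle, swimming went with lower signal of fibrillar, basement membrane and type VI collagens. Of the 30 collagens that passed the filter, 10 fell (33.3%), where 5.68% of all 11337 genes tested fell, and 0 rose, where 5.72% of all genes did; the test was limma with adjustment over all genes. Of the 30 differences 28 were below 0, with a median of -0.21 beside -0.02 over all genes. By class, 4 of 10 fibrillar genes, 3 of 4 basement membrane genes and 3 of 16 other collagens fell, with medians of -0.30, -0.55 and -0.18. In bulk RNA, fewer cells of a type and less RNA per cell cannot be told apart.

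Type III and type V led the fibrillar genes. Col3a1 read 9.54, 9.38, 9.02 and 9.28 in the control arrays and 8.29, 8.52 and 8.19 in the swim arrays, a difference of -0.97 (SE 0.13), a swim to control ratio of 0.509 and a limma adjusted p of 0.0105. All swim arrays lay below all control arrays. Col5a3, a minor chain of type V collagen, read 6.52, 6.34, 6.21 and 6.34 in the control arrays and 5.43, 5.66 and 5.59 in the swim arrays, a difference of -0.79 (SE 0.09), a swim to control ratio of 0.578 and a limma adjusted p of 0.00760. The lowest control array of Col5a3 lay above the highest swim array. Col5a2 read 7.29, 7.11, 6.86 and 7.14 in the control arrays and 6.35, 6.45 and 6.39 in the swim arrays, a difference of -0.71 (SE 0.10), a swim to control ratio of 0.613 and a limma adjusted p of 0.0111. Col5a1, the chain found in nearly all type V molecules, which seed and narrow type I fibrils, read 6.96, 6.92, 6.78 and 6.90 in the control arrays and 6.45, 6.57 and 6.38 in the swim arrays, a difference of -0.42 (SE 0.07), a swim to control ratio of 0.746 and a limma adjusted p of 0.0159. Neither Col5a2 nor Col5a1 overlapped between groups. A second probe set of Col5a1 differed by -0.31 in muscle, although the pair of probe sets correlated at only r = 0.236 over the 54 arrays.

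Type I chains did not pass the test. Col1a1 read 10.0, 9.53, 8.94 and 9.28 in the control arrays and 9.16, 9.05 and 8.53 in the swim arrays, a difference of -0.52 (SE 0.25), a swim to control ratio of 0.696 and a limma adjusted p of 0.193. The highest swim array, 45, lay above the lowest control array, 43, and both groups spanned a wide range. Col1a2, the partner chain of Col1a1, read 10.27, 9.78, 9.28 and 9.67 in the control arrays and 9.87, 9.63 and 9.21 in the swim arrays, a difference of -0.18 (SE 0.23), a swim to control ratio of 0.883 and a limma adjusted p of 0.628. Its groups overlapped over most of their range. The remaining fibrillar genes tested, Col2a1, Col11a1, Col24a1 and Col27a1, lay between -0.11 and -0.02.

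Of the basement membrane genes, both chains of the common type IV network fell. Col4a1 read 8.58, 8.39, 8.37 and 8.33 in the control arrays and 7.31, 7.78 and 7.58 in the swim arrays, a difference of -0.86 (SE 0.12), a swim to control ratio of 0.551 and a limma adjusted p of 0.0105. Col4a2, whose start neighbours that of Col4a1, read 8.15, 8.04, 8.05 and 7.90 in the control arrays and 7.33, 7.64 and 7.43 in the swim arrays, a difference of -0.57 (SE 0.09), a swim to control ratio of 0.675 and a limma adjusted p of 0.0147. For both, every swim array lay below every control array. Col15a1, which anchors basement membranes to the fibrils beside them and whose loss is known to harm muscle and its capillaries, read 8.13, 8.0, 7.76 and 8.07 in the control arrays and 7.29, 7.74 and 7.34 in the swim arrays, a difference of -0.54 (SE 0.13), a swim to control ratio of 0.690 and a limma adjusted p of 0.0392. The highest swim array of Col15a1, 46, read 7.74 against 7.76 in the lowest control array, without overlap. The call for Col15a1 was lost in 12 of 21 alternatives of scaling, filter, model, covariate or arrays left out, 6 of them fits without 1 of the 7 arrays. Col18a1 was not called (-0.21, SE 0.09, limma adjusted p = 0.147).

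Type VI collagen forms the microfilaments between the basement membrane and the fibrils of muscle, and its loss causes muscle disease. Col6a3 read 8.78, 8.60, 8.47 and 8.67 in the control arrays and 8.26, 8.32 and 8.08 in the swim arrays, a difference of -0.41 (SE 0.09), a swim to control ratio of 0.752 and a limma adjusted p of 0.0319. Col6a2 read 8.80, 8.47, 8.23 and 8.60 in the control arrays and 8.01, 8.09 and 7.81 in the swim arrays, a difference of -0.55 (SE 0.13), a swim to control ratio of 0.681 and a limma adjusted p of 0.0386. Col6a4, a long chain that can take the place of the alpha 3 chain, read 6.70, 7.03, 6.95 and 7.11 in the control arrays and 6.55, 6.29 and 6.57 in the swim arrays, a difference of -0.48 (SE 0.11), a swim to control ratio of 0.719 and a limma adjusted p of 0.0366. None of these overlapped between groups. The calls for Col6a3 and Col6a2 were each lost in 11 of 21 alternatives, and that for Col6a4 in 12 of 20. Col6a1 read 8.84, 8.57, 8.33 and 8.66 in the control arrays and 8.24, 8.44 and 8.12 in the swim arrays, a difference of -0.33 (SE 0.13), a swim to control ratio of 0.794 and a limma adjusted p of 0.117, and its groups overlapped. Only Col12a1 and Col20a1 of the 30 tested had differences above 0. Col12a1 read 7.55, 6.82, 6.73 and 6.74 in the control arrays and 7.75, 7.43 and 6.96 in the swim arrays, a difference of 0.42 (SE 0.25), a swim to control ratio of 1.34 and a limma adjusted p of 0.278, with overlap, and Col20a1 differed by 0.03.

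**Figure D2:**
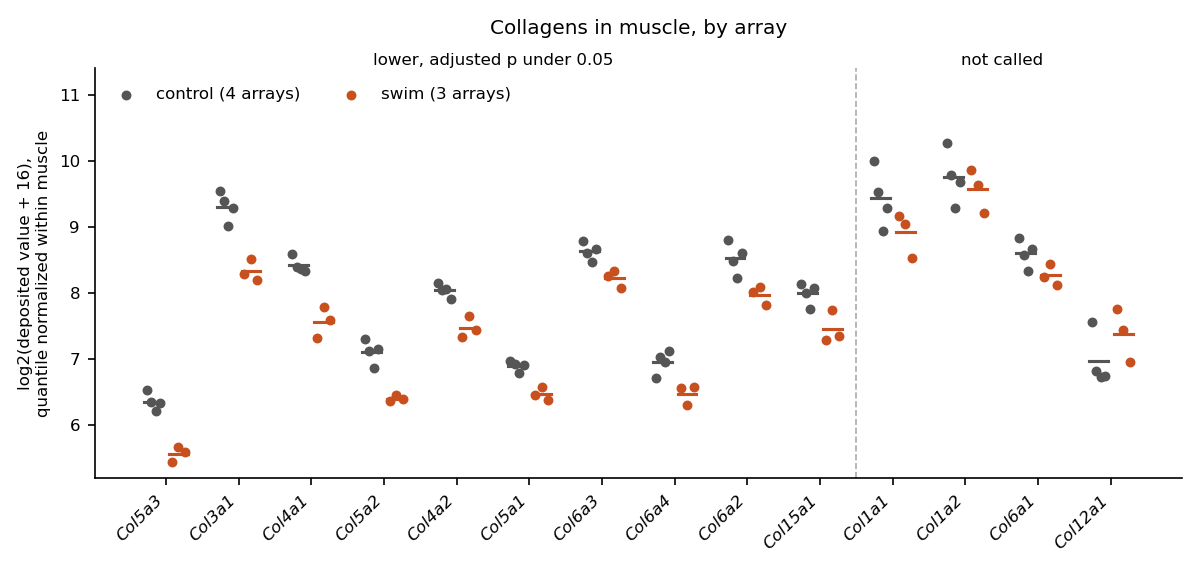
Log2(deposited value + 16), quantile normalized within muscle, of 14 collagens on each of 4 control arrays (grey points) and 3 swim arrays (orange points), with a line at each group mean. Left of the dashed line are the 10 collagens with a limma adjusted p under 0.05, whose groups do not overlap, and right of it are 4 that did not pass, whose groups do.

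The count in muscle depended on single arrays but its direction did not: without swim array 46, 4 collagens fell (Col5a3, Col3a1, Col4a1 and Col4a2, which kept their calls without any 1 array), without control array 42, control array 44 or swim array 47, 6 fell, and none rose in any of these. Of all genes, 68 were called without swim array 46. Without arrays 42, 44 and 47 they numbered 847, 496 and 487, beside 1293 in the main fit. With the values as deposited, the median over all genes moved to -0.23 and that over collagens was -0.32, and 8 collagens fell. Of these 8, 7 were also called in the main fit, and 403 of all 11346 genes were called.

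Signal of other cells moved along with the collagens in muscle. Of 8 smooth muscle and pericyte markers 4 rose, Acta2 by 1.14, Myh11 by 0.99, Tagln by 1.17 and Pdgfrb by 0.33, and their mean was 8.26 to 8.56 in control arrays and 8.75 to 9.28 in swim arrays. Of 6 macrophage markers 3 fell (Adgre1 -0.51, Mpeg1 -1.0 and C1qb -0.41), with list means of 6.54 to 7.09 and 6.33 to 6.50. Among 10 fibroblast markers limma called 0, with 3 at an unadjusted p under 0.05, and the means were 7.98 to 8.35 and 8.0 to 8.06. The endothelial list had 1 of 8 higher, Cdh5 by 0.54, with means of 8.17 to 8.38 and 8.36 to 8.68. Adipocyte markers averaged 6.83 to 8.57 in control and 8.02 to 9.44 in swim arrays, with 0 called by limma. In fits added after the data were seen, with the mean of a marker list as a covariate, 10 collagens were called with the tendon and cartilage list, 6 with the adipocyte list, and 0 with the smooth muscle and pericyte list or the macrophage list. Of all 11337 genes, 1342, 1043, 95 and 1 were called in these 4 fits, in that order, beside 1293 in the main fit. The last 2 fits thus lost nearly all calls, not those of collagens alone. With the smooth muscle and pericyte list Col3a1 differed by -0.69 (limma adjusted p = 0.202) and Col4a1 by -1.13 (limma adjusted p = 0.064), and with the macrophage list by -0.60 (limma adjusted p = 0.189) and -0.82 (limma adjusted p = 0.186). The means of the smooth muscle and pericyte list and of the macrophage list do not overlap between groups, so with 7 arrays such a list and swimming cannot be told apart.

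Genes that fold, link and cut collagen were counted by list in muscle. Of 16 tested genes of folding and hydroxylation, limma called 0, with 3 at an unadjusted p under 0.05. Of 8 genes of propeptide removal and crosslinking 2 fell, the crosslinking enzymes Loxl1 (-0.55, limma adjusted p = 0.0131) and Loxl2 (-0.57, limma adjusted p = 0.0427). Among 9 genes of collagen breakdown, the membrane-bound collagenase Mmp14 fell (-0.63, limma adjusted p = 0.0172) and Timp3, an inhibitor of metalloproteinases, rose (0.83, limma adjusted p = 0.00669). Of 10 basement membrane partners the laminin chains Lama5 (0.37) and Lamb2 (0.35) rose, and of 6 receptors Itga1, the alpha chain of a type IV collagen receptor, rose (0.58) and its partner Itgb1 fell (-0.28). Limma called 0 of 15 fibril-bound proteins, with 1 at an unadjusted p under 0.05, and 0 of 13 genes of TGF-beta signalling, with 3 at an unadjusted p under 0.05.

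In visceral fat collagens moved both ways, in shares near those of all genes. Of 28 tested, 3 rose (10.7%, all genes 11.3%) and 3 fell (10.7%, all genes 12.1%). Col15a1 read 9.99, 10.31, 10.10 and 10.46 in the control arrays and 11.0, 10.66, 10.76 and 10.85 in the swim arrays, a difference of 0.60 (SE 0.12), a swim to control ratio of 1.52 and a limma adjusted p of 0.00702. Col5a3 read 7.27, 7.58, 7.54 and 7.40 in the control arrays and 7.90, 7.60, 7.72 and 7.98 in the swim arrays, a difference of 0.35 (SE 0.11), a swim to control ratio of 1.27 and a limma adjusted p of 0.0389. For each the groups did not overlap, and the direction was opposite to that in muscle. The call for Col5a3 was lost in 9 of 18 alternatives, 5 of them fits without 1 array, and that for Col15a1 in 3 of 18. Col20a1, a little-studied collagen of the fibril-associated group, read 6.09, 6.0, 6.31 and 6.25 in the control arrays and 6.54, 6.59, 6.78 and 6.56 in the swim arrays, a difference of 0.45 (SE 0.09), a swim to control ratio of 1.37 and a limma adjusted p of 0.00861. Its second probe set differed by -0.13 in this fat, so the probe sets disagree in sign.

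Col14a1, a fibril-surface collagen, read 8.63, 7.81, 8.36 and 8.26 in the control arrays and 7.67, 7.75, 7.56 and 7.88 in the swim arrays, a difference of -0.54 (SE 0.15), a swim to control ratio of 0.685 and a limma adjusted p of 0.0312. Control array 2 fell within the range of the swim arrays. Col23a1, a membrane-spanning collagen, read 6.99, 7.10, 6.89 and 6.89 in the control arrays and 6.69, 6.54, 6.75 and 6.57 in the swim arrays, a difference of -0.33 (SE 0.08), a swim to control ratio of 0.796 and a limma adjusted p of 0.0174. Col4a5, a basement membrane chain, read 6.09, 6.13, 5.99 and 6.03 in the control arrays and 5.82, 5.82, 5.74 and 5.88 in the swim arrays, a difference of -0.24 (SE 0.07), a swim to control ratio of 0.844 and a limma adjusted p of 0.0301. Neither overlapped between groups. The call for Col4a5 was lost in 10 of 17 alternatives and that for Col14a1 in 8 of 18, in each case 6 of them without 1 array, and that for Col23a1 in 1 of 17.

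Col3a1, Col4a1 and Col4a2, which fell in muscle, did not pass in visceral fat, nor did Col1a1 and Col6a1. Col3a1 read 10.24, 10.49, 10.46 and 10.16 in the control arrays and 10.11, 9.95, 10.06 and 10.46 in the swim arrays (-0.19, SE 0.12, limma adjusted p = 0.275). Col1a1 read 9.35, 9.64, 9.71 and 9.12 in the control arrays and 9.41, 8.99, 9.20 and 9.69 in the swim arrays (-0.13, SE 0.17, limma adjusted p = 0.605). In both, the groups shared most of their range. Col4a1 read 9.97, 10.37, 10.49 and 10.27 in the control arrays and 10.18, 9.92, 10.18 and 10.52 in the swim arrays (-0.07, SE 0.14, limma adjusted p = 0.737). Col4a2 read 9.52, 9.89, 9.92 and 9.85 in the control arrays and 9.83, 9.52, 9.80 and 10.04 in the swim arrays (0.003, SE 0.13, limma adjusted p = 0.988). Col6a1 read 9.68, 9.75, 9.78 and 9.53 in the control arrays and 10.01, 9.33, 9.54 and 9.76 in the swim arrays (-0.02, SE 0.14, limma adjusted p = 0.917). Swim array 6 was the lowest of its group for Col3a1, Col1a1, Col4a1, Col4a2 and Col6a1. Fibroblast markers fell in 5 of 10, with means of 9.09 to 9.5 in control and 8.51 to 9.0 in swim arrays, and endothelial markers rose in 5 of 8, from 8.82 to 9.14 up to 9.17 to 9.37. Macrophage markers rose in 2 of 6 (8.23 to 9.11 in control, 8.81 to 9.43 in swim arrays), and of 8 smooth muscle and pericyte markers 2 rose and 1 fell (8.71 to 9.15 and 8.57 to 8.94); their part in the result was not tested. Of 16 genes of folding and hydroxylation 2 fell (P3h3 -0.42 and Fkbp14 -0.37), and of 10 of propeptide removal and crosslinking 1 fell, the crosslinking enzyme Lox (-0.47). Of 9 genes of breakdown, Timp3 (0.62) and the protease gene Fap (0.53) rose, and Mmp9 (-1.76) and Mmp14 (-0.55) fell. The small proteoglycan gene Aspn (0.62) rose among 15 fibril-bound genes, the perlecan gene Hspg2 (0.51) and Lama5 (0.46) among 10 basement membrane partners, and Itga1 (0.60) among 5 receptors, of which Ddr2 (-0.29) fell. Of 14 genes of TGF-beta signalling 2 rose and 3 fell, Tgfb3 by 0.86. The split rests on scaling: centred on array medians, where the median of all genes moved to -0.22, 1 collagen rose and 12 fell, and as deposited 0 rose and 1 fell, none of the 6. Of all 11456 genes, 5211 were called with the arrays centred and 602 as deposited. Without control array 4 or swim array 7, 3 collagens passed, and 1824 and 1695 genes in all were called, beside 2680 in the main fit.

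In kidney, 2 of 25 collagens rose (8%, all genes 10.8%) and 4 fell (16%, all genes 13.6%). Col27a1, a fibrillar collagen of cartilage, read 6.51, 6.64, 6.34 and 6.46 in the control arrays and 7.02, 6.92, 7.19 and 7.17 in the swim arrays, a difference of 0.59 (SE 0.08), a swim to control ratio of 1.5 and a limma adjusted p of 0.000960. Col3a1 read 7.05, 7.27, 7.25 and 6.90 in the control arrays and 6.72, 6.42, 6.71 and 6.66 in the swim arrays, a difference of -0.49 (SE 0.09), a swim to control ratio of 0.713 and a limma adjusted p of 0.00521. Col1a1 read 7.43, 7.52, 7.72 and 7.24 in the control arrays and 7.23, 6.71, 7.12 and 6.80 in the swim arrays, a difference of -0.51 (SE 0.13), a swim to control ratio of 0.702 and a limma adjusted p of 0.0176. Groups were apart for all 3. Col4a1 read 8.47, 8.40, 8.62 and 8.27 in the control arrays and 8.06, 8.23, 8.21 and 8.10 in the swim arrays, a difference of -0.29 (SE 0.08), a swim to control ratio of 0.818 and a limma adjusted p of 0.0197. Col18a1 read 8.19, 8.24, 8.29 and 8.03 in the control arrays and 7.98, 8.07, 7.97 and 7.92 in the swim arrays, a difference of -0.20 (SE 0.06), a swim to control ratio of 0.869 and a limma adjusted p of 0.0390. Col12a1 read 6.56, 6.51, 6.64 and 6.42 in the control arrays and 6.87, 6.63, 6.83 and 6.68 in the swim arrays, a difference of 0.22 (SE 0.07), a swim to control ratio of 1.16 and a limma adjusted p of 0.0407. Of these, Col4a1 did not overlap between groups, and Col18a1 and Col12a1 did, narrowly. The calls for Col18a1 and Col12a1 were lost in 9 of 18 and 9 of 17 alternatives, in each case 6 of them without 1 array, and that for Col4a1 in 4 of 18.

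Other main chains were not called in kidney. Col4a2 read 8.09, 8.15, 8.24 and 7.90 in the control arrays and 8.0, 8.07, 7.95 and 8.0 in the swim arrays (-0.09, SE 0.07, limma adjusted p = 0.377). Col15a1 read 7.17, 7.39, 7.23 and 7.28 in the control arrays and 7.21, 6.98, 7.04 and 7.06 in the swim arrays (-0.19, SE 0.06, limma adjusted p = 0.0528). Col6a1 read 7.09, 7.25, 7.05 and 7.12 in the control arrays and 7.16, 6.93, 7.13 and 7.06 in the swim arrays (-0.06, SE 0.06, limma adjusted p = 0.550). The groups overlapped in all 3. Col4a3, Col4a4 and Col4a5, the chains set apart in kidney at rest, were not called either.

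Macrophage markers fell in 5 of 6 in kidney (7.53 to 7.66 in control, 6.91 to 7.15 in swim arrays) and smooth muscle and pericyte markers rose in 4 of 8 (7.52 to 7.62 and 7.89 to 8.11). Endothelial markers rose in 3 of 8 (8.54 to 8.62 and 8.59 to 8.71), and of 6 fibroblast markers tested 1 rose and 2 fell, with means over all 10 of 7.04 to 7.10 and 6.89 to 7.08; their part in the result was not tested. Of 16 genes of folding and hydroxylation Plod2 (-0.38), Plod3 (-0.29) and Crtap (-0.35) fell and P3h2 (0.36) rose. Of 8 genes of propeptide removal and crosslinking Pcolce, which speeds removal of the fibrillar propeptide, fell (-0.40), as did Loxl1 (-0.33), and Tll1 (0.19) rose. Mmp14 (-0.20) fell among 6 genes of breakdown; Ogn (0.50) and Aspn (0.67) rose and Sparc (-0.28) and Fbln1 (-0.24) fell among 13 fibril-bound genes. Lama5 (0.20) rose among 10 basement membrane partners and Itga1 (0.22) among 5 receptors, and of 12 genes of TGF-beta signalling Ccn2 (0.49) and Ltbp1 (0.21) rose and Tgfb1 (-0.32) fell. As deposited, limma called 0 collagens and 42 genes in all in kidney. Without swim array 16 the count of collagens was 3, and 2114 genes in all were called, beside 2831 in the main fit.

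In spleen, 4 of 19 collagens fell (21.1%, all genes 7.04%) and 1 rose (5.26%, all genes 7.06%), and the 3 basement membrane genes tested all fell. Col4a1 read 7.59, 7.58, 7.94 and 7.49 in the control arrays and 7.23, 7.10, 7.03 and 6.93 in the swim arrays, a difference of -0.58 (SE 0.10), a swim to control ratio of 0.671 and a limma adjusted p of 0.0134. Col4a2 read 7.43, 7.14, 7.68 and 7.21 in the control arrays and 7.03, 7.0, 6.93 and 6.74 in the swim arrays, a difference of -0.44 (SE 0.12), a swim to control ratio of 0.735 and a limma adjusted p of 0.0403. Col18a1 read 6.29, 6.38, 6.24 and 6.29 in the control arrays and 6.01, 5.96, 5.94 and 5.52 in the swim arrays, a difference of -0.44 (SE 0.10), a swim to control ratio of 0.738 and a limma adjusted p of 0.0272, with swim array 32 far below the rest. Col1a1 read 8.10, 7.87, 8.14 and 7.95 in the control arrays and 7.66, 7.79, 7.63 and 7.70 in the swim arrays, a difference of -0.32 (SE 0.07), a swim to control ratio of 0.802 and a limma adjusted p of 0.0236. Col12a1 read 6.49, 6.62, 6.43 and 6.49 in the control arrays and 6.85, 7.05, 6.81 and 6.71 in the swim arrays, a difference of 0.35 (SE 0.08), a swim to control ratio of 1.28 and a limma adjusted p of 0.0235. For none of the 5 did the groups overlap. The call for Col4a2 was lost in 9 of 17 alternatives, that for Col18a1 in 6 of 17, that for Col12a1 in 5 of 17 and that for Col4a1 in 1 of 18. Endothelial markers fell in 3 of 8 (7.57 to 7.72 in control, 7.33 to 7.53 in swim arrays) and macrophage markers in 6 of 6 (9.57 to 9.72 and 8.80 to 9.39), while smooth muscle and pericyte markers rose in 2 of 7 and fibroblast markers in 1 of 6; their part in the result was not tested. Of 8 genes of propeptide removal and crosslinking 4 fell, the propeptide genes Pcolce (-0.58), Pcolce2 (-0.98) and Adamts14 (-0.36) and the crosslinking gene Loxl1 (-0.42). Of 11 genes of folding and hydroxylation the prolyl hydroxylase gene P4ha1 (0.76) and the export gene Mia3 (0.23) rose. Mmp9 (-1.73) fell among 9 genes of breakdown, the collagen-binding Sparc (-0.54) fell and Aspn (0.65) rose among 13 fibril-bound genes, and Lamc1 (0.32) rose and Hspg2 (-0.27) fell among 8 basement membrane partners. Single arrays decided the count: 1 collagen passed without control array 25 or control array 27, and 2 without control array 28 or swim array 31. All genes called were 579, 700, 852 and 748 in these 4 fits, in that order, beside 1600 in the main fit.

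In liver, 1 of 24 collagens fell (4.17%, all genes 2.16%) and 0 rose (all genes 1.83%). Col15a1 read 6.51, 6.69 and 6.58 in the control arrays and 6.16, 5.99, 5.59 and 5.89 in the swim arrays, a difference of -0.68 (SE 0.13), a swim to control ratio of 0.623 and a limma adjusted p of 0.0281. Its groups did not overlap. Col14a1 read 8.93, 8.84 and 9.11 in the control arrays and 9.24, 9.29, 9.43 and 9.18 in the swim arrays (0.32, SE 0.09, limma adjusted p = 0.0843) and Col1a2 read 6.90, 6.79 and 6.88 in the control arrays and 7.13, 7.12, 7.18 and 6.95 in the swim arrays (0.24, SE 0.07, limma adjusted p = 0.108). Neither was called, and 18 of the 24 differences were above 0, with a median of only 0.07 beside -0.0009 over all genes. Macrophage markers fell in 6 of 6 (8.77 to 8.91 in control, 7.85 to 8.31 in swim arrays) and of 5 hepatic stellate cell markers, genes of the main fibroblast-like cell of liver, 1 rose (8.18 to 8.25 and 8.22 to 8.61), and their part in the result was not tested. Timp3 rose (0.80) among 5 genes of breakdown, Pcolce2 fell (-0.79) among 6 of propeptide removal and crosslinking, and Smad2 rose (0.30) among 11 of TGF-beta signalling. Without control array 52, which carried skeletal muscle signal, 3 collagens passed, without swim array 55, 2 did, and without control array 49, control array 50, swim array 54 or swim array 56, 0 did. All genes called were 525, 229, 126, 166, 128 and 257 in these fits, in that order, beside 447 in the main fit.

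In subcutaneous fat limma called 0 of 24 collagens and 0% of all genes in either direction, while 4 collagens and 2489 genes had an unadjusted p under 0.05. On simulated data the test recovered a far smaller share of changed genes here than in any other tissue, so few changes of that size could be found. Those of smallest p follow. Col6a4 read 6.73, 8.73, 9.35 and 8.76 in the control arrays and 6.19, 6.13, 7.55 and 6.32 in the swim arrays, a difference of -1.84 (SE 0.58), a swim to control ratio of 0.279 and a limma adjusted p of 0.206. Control array 17, low in B and T cell markers, and swim array 23, high in them, lay nearest to the other group. Swim array 22, high in B and T cell markers and in kidney tubule markers, read the lowest of all, 6.13. The part of these signals in the Col6a4 values was not tested. Col17a1, a collagen that anchors the basal cells of skin, read 9.772 in swim array 24 and 5.288 to 5.457 in the other swim arrays. Col8a1, a short-chain collagen of vessels, read 6.43, 5.18, 4.86 and 4.91 in the control arrays and 7.22, 6.45, 5.99 and 6.81 in the swim arrays, a difference of 1.27 (SE 0.40), a swim to control ratio of 2.42 and a limma adjusted p of 0.206. Col6a5 read 6.54, 6.15, 6.59 and 7.16 in the control arrays and 4.69, 5.79, 6.48 and 4.92 in the swim arrays (-1.14, SE 0.41, limma adjusted p = 0.212). Without control array 17, 2 of 22 collagens rose and 1 fell, where 3982 of all 11521 genes were called. Without control array 17 and swim array 22, 9 of 23 rose and 1 fell, where 4371 of all 11476 genes were called. With the mean of the B and T cell markers as a covariate 0 collagens and 1 gene were called.

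In brain limma called 0 of 12 collagens, beside 0.508% of all genes higher and 0.0517% lower. Col11a1, a minor fibrillar chain, read 6.12, 6.08, 6.25 and 6.14 in the control arrays and 6.49, 6.56, 6.26 and 6.24 in the swim arrays (0.24, SE 0.09, limma adjusted p = 0.227). Col26a1 read 6.29, 6.22, 6.16 and 6.06 in the control arrays and 6.03, 6.10, 6.04 and 5.83 in the swim arrays (-0.18, SE 0.08, limma adjusted p = 0.293), and Col12a1 read 6.30, 6.26, 6.01 and 6.35 in the control arrays and 6.25, 6.38, 6.41 and 6.45 in the swim arrays (0.14, SE 0.08, limma adjusted p = 0.439). The groups overlapped in all 3. Col1a1, Col3a1 and Col4a1 were among those too low in brain to be tested.

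**Figure D3:**
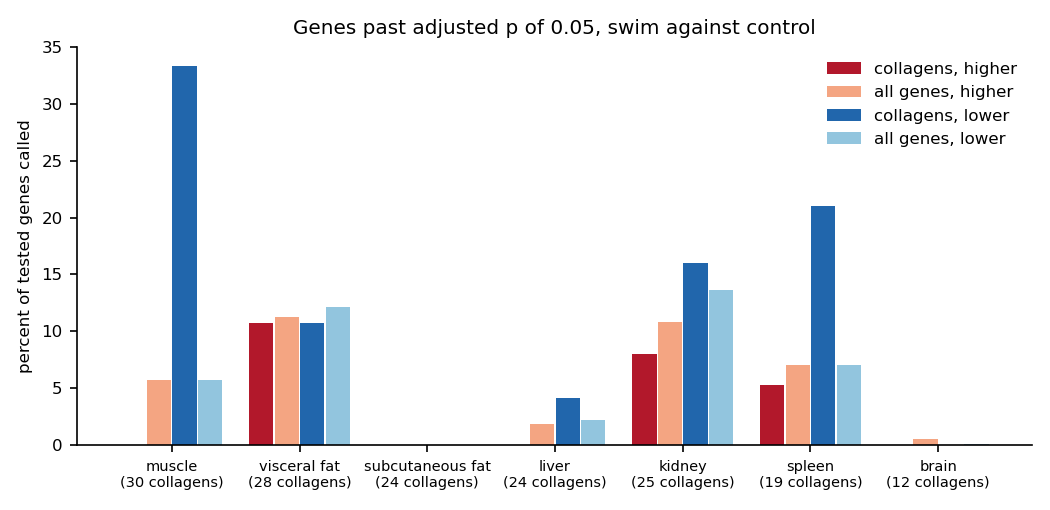
Percent of tested genes with a limma adjusted p under 0.05 in each tissue, for collagens (dark bars) and all genes (light bars), higher (red) and lower (blue) in swim than in control arrays, with the number of collagens tested under each tissue. In muscle 33.3% of collagens were lower against 5.68% of all genes, and in visceral fat both bars of each direction are close.

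The swim difference itself was compared between tissues, by a test of whether the limma differences of the 7 tissues are equal, each weighted by its own error. It passed for 17 of 37 collagens, where 36.3% of all genes passed, so the share of collagens is not far from the background. Smallest were the adjusted p-values (limma estimates) of Col5a3 (0.000119), Col15a1 (0.000241), Col3a1 (0.000294), Col4a1 (0.00233), Col27a1 (0.00299), Col5a2 (0.00339), Col6a4 (0.00733) and Col12a1 (0.00846). With the values as deposited 8 collagens passed, 7 of them among the 17, where 1614 of 14855 genes passed. With an F test in 1 fit of all arrays 9 passed, 6 of them among the 17, where 5322 of 14841 genes passed. On simulated data the share of unchanged genes among this test's calls was several times what its threshold allows, so the counts are too high.

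Muscle was then set against each other tissue. Against visceral fat 8 of 24 collagens differed (all genes 15.6%), with Col5a3 -1.14 (SE 0.14, limma-based adjusted p = 0.00012) and Col15a1 -1.14 (SE 0.17, limma-based adjusted p = 0.000689) in front. Differences passed for 8 of 24 against liver (all genes 9.63%), 8 of 22 against kidney (16.6%) and 4 of 18 against spleen (13.6%). The muscle difference was the lower one in each of these. For Col3a1 the muscle difference minus that of liver was -1.08 (SE 0.16), and minus that of spleen -1.0 (SE 0.15). Against subcutaneous fat 0 of 22 passed (all genes 0.0388%) and against brain 0 of 12 (0.96%). An unadjusted p under 0.05 was reached against subcutaneous fat by 4 of 22 collagens and 2279 of 10322 genes. Against brain it was reached by 2 of 12 collagens and 1765 of 9900 genes. In the simulation, the test of muscle against kidney called 14 unchanged genes beside 119 changed ones. That is more than its threshold allows, and the other pairs of tissues were not simulated.

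Across tissues Col4a1 fell in muscle, kidney and spleen, Col3a1 in muscle and kidney, Col1a1 and Col18a1 in kidney and spleen, and Col4a2 in muscle and spleen. Col15a1 rose in visceral fat and fell in muscle and liver, and Col5a3 rose in visceral fat and fell in muscle. Of these, the calls for Col15a1 in muscle (12 of 21 alternatives), Col5a3 in visceral fat (9 of 18) and Col4a2 in spleen (9 of 17) were often lost, and that for Col15a1 in liver was lost in 5 of 16. Col12a1 had a difference above 0 in each of the 6 tissues where it was tested and was called in 2, and Col20a1 in each of 7 and was called in 1. In liver Col12a1 did not pass the filter and lay the other way, at 5.99, 5.75 and 5.61 in the control arrays and 5.36, 5.42, 5.54 and 5.41 in the swim arrays. Of the 42 collagens, Col8a2, Col10a1, Col11a2, Col19a1 and Col25a1 passed the filter in no tissue.

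**Figure D4:**
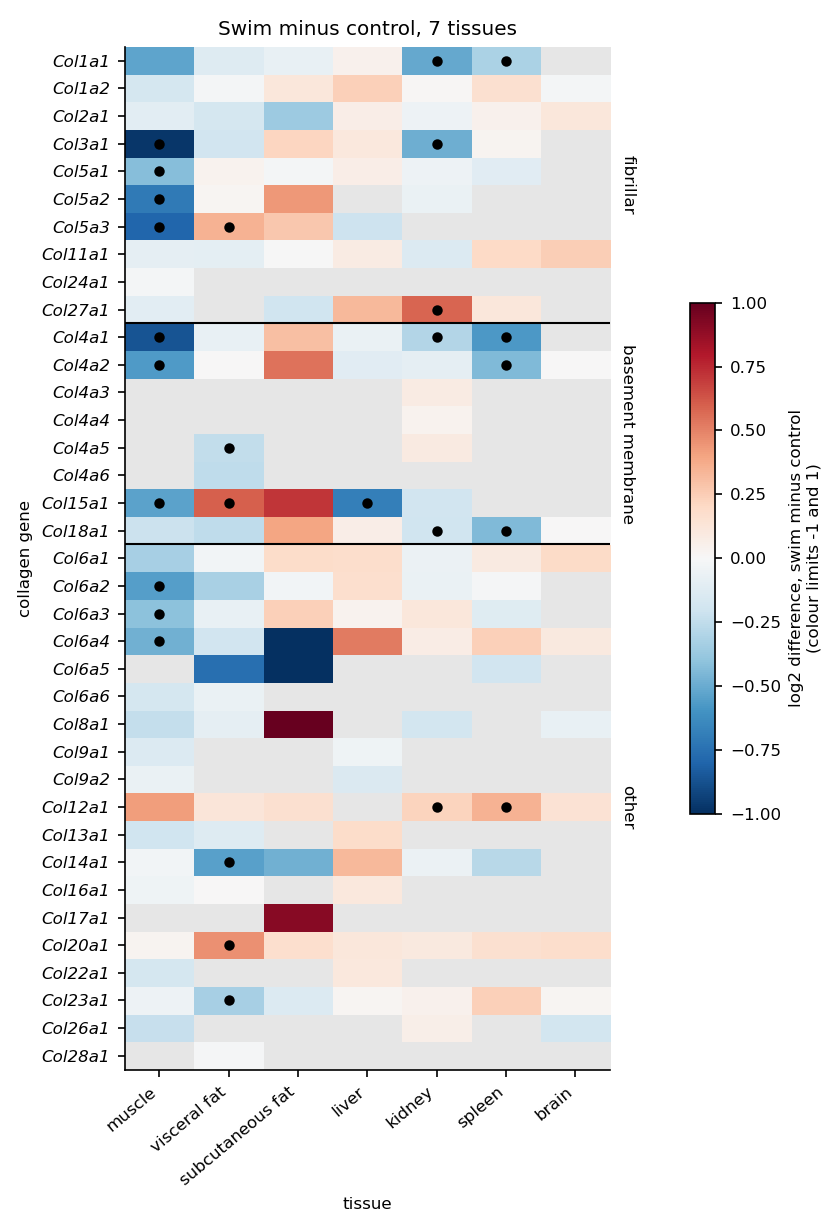
Swim minus control difference (log2, colour limits -1 and 1, values beyond drawn at the limit) of 37 collagens in 7 tissues, with a black dot where the limma adjusted p was under 0.05 and grey where the gene was not tested. The muscle column is blue in nearly every row with 10 dots, and the Col15a1 row is blue in muscle and liver and red in visceral fat.

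**Figure D5:**
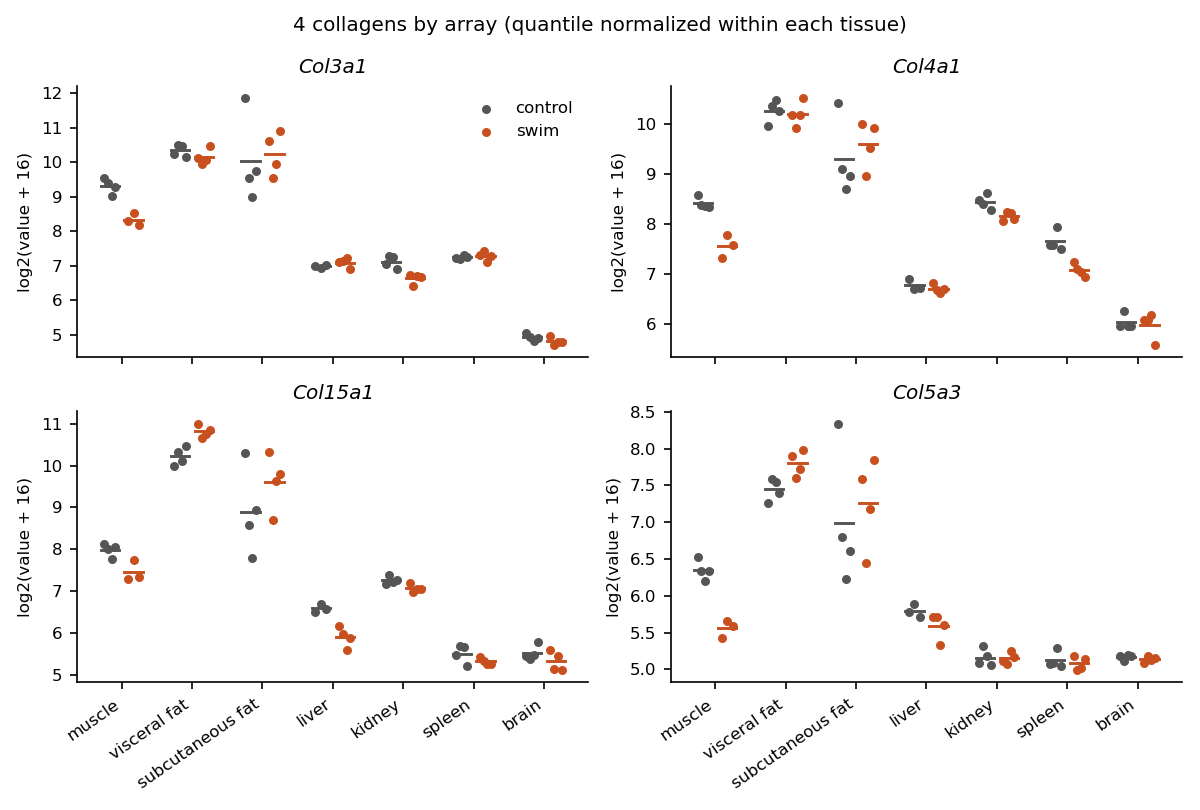
Log2(deposited value + 16), quantile normalized within each tissue, of Col3a1, Col4a1, Col15a1 and Col5a3 on each control array (grey points) and swim array (orange points) of 7 tissues, with a line at each group mean. Swim points lie below control points in muscle for all 4 genes, and above them in visceral fat for Col15a1 and Col5a3.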

How the data were processed

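The values are probe set intensity values deposited by the authors for 54 arrays; PLIER and limma are named in the submitters' processing notes, with no version or role. Of 25917 probe sets, 21086 carried 1 gene symbol, 1867 several and 2964 none. The probe set with the highest mean over all arrays stood for a gene. Log2(value + 16) was quantile normalized within each tissue (over all 54 arrays for levels at rest). Probe sets in the lowest 40% by tissue mean were left out, and swim was tested against control in each tissue with limma 3.58.1 (R 4.3.3), with Benjamini-Hochberg adjustment over all genes tested and a threshold of 0.05. Values in every array are given for Col1a1, Col3a1, Col4a1, Col4a2, Col15a1 and Col6a1 in muscle, visceral fat and kidney, for up to 6 collagens called in each direction in a tissue, and, where fewer than 3 passed, for the 3 of smallest p; from each other list up to 3 called genes are named. Col1a2, Col6a2, Col6a3, Col6a4 and Col12a1 in muscle and further called genes of short lists were added after their values were seen. Members, lists and this rule were chosen with earlier results of these data known. Differences between tissues used each tissue's limma estimate and error. Alternatives were the scaling, pseudocount, filter, probe set rule, limma options, 1 fit of all arrays, array weights, and leaving out arrays. The tests were checked on simulated data. Plots were drawn with matplotlib 3.10.9.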

Additional observations from a re-analysis of the deposited data

Results flagged for a closer look

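Among 79 combinations of a group of 4 arrays and a collagen whose array values are given for swim against control, 3 held an array whose gap to its nearest neighbour, as a share of the group's range, passed Dixon's 95% critical value; chance passes about 1 in 20. Col12a1 in muscle read 7.555 in control array 41, where the nearest array read 6.82 and the lowest 6.728, a share of 0.889. Col6a4 in subcutaneous fat read 7.553 in swim array 23, where the nearest array read 6.321 and the lowest 6.13, a share of 0.866. Col18a1 in spleen read 5.524 in swim array 32, where the nearest read 5.937 and the highest 6.012, a share of 0.846. Over all 270 combinations of such a group and a collagen that passed the filter in the tissue, 14 passed this value. Control array 17 of subcutaneous fat made up 6 of them, as the highest array for Col6a3, Col2a1, Col6a2, Col5a1, Col6a1 and Col4a2. The farthest apart was Col17a1 in swim array 24 of that fat, 9.772 against 5.288 to 5.457. Col4a3, which did not pass the filter there, read 7.606 in swim array 22, the array high in kidney tubule markers, against 5.367 to 5.541 in the other swim arrays.

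The test of an equal swim difference over the 7 tissues passed for 17 of 37 collagens, where 36.3% of all genes passed. In the simulation it called 44 unchanged genes beside 184 changed ones, so the count is too high. By the F test in 1 fit of all arrays 9 collagens passed, 6 of them among these 17. The adjusted p-values of the 17, from the limma estimates, follow. Of the fibrillar genes, Col5a3 had 0.000119, Col3a1 0.000294, Col27a1 0.00299, Col5a2 0.00339 and Col5a1 0.0227. Of the basement membrane genes, Col15a1 had 0.000241, Col4a1 0.00233, Col4a2 0.014, Col4a6 0.04 and Col4a5 0.0481. Of the other collagens, Col6a4 had 0.00733, Col12a1 0.00846, Col14a1 0.0127, Col26a1 0.0286, Col6a3 0.0305, Col6a2 0.0466 and Col23a1 0.0472.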

How the results depend on the processing

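Counts of collagens called moved by over 1.5 times in these settings. In muscle (10) there were 6 with no filter, 6 with the lowest 60% left out, 3 in 1 fit of all arrays and, with covariates chosen after seeing the data, 6 (adipocyte), 0 (smooth muscle and pericyte) and 0 (macrophage). All genes called were 596 of 18759, 1335 of 7700 and 623 of 11337 in the first 3 settings. With the covariates they were 1043, 95 and 1 of 11337, beside 1293 of 11337 in the main fit. In visceral fat (6 of 28) there were 1 as deposited, 13 with arrays centred on their medians (5211 of all 11456 genes), 3 with the lowest 60% left out and 2 in 1 fit. In subcutaneous fat (0 of 24) there were 6 in 1 fit (6622 of all 11545 genes) and 12 with array weights (5722 of 11545). Without control array 17 and swim array 22 there were 10 of 23 (4371 of 11476 genes). In liver (1) there were 2 as deposited, 0 with the lowest 60% left out, 2 with the trend and robust options and 0 in 1 fit. All genes called there were 499, 599, 706 and 351, in that order, beside 447 in the main fit. In kidney (6) there were 0 as deposited, 2 with the lowest 60% left out and 1 in 1 fit. All genes called there were 42, 2372 and 382, beside 2831 in the main fit. In spleen (5) there were 2 with the lowest 60% left out and 0 in 1 fit. All genes called there were 1453 and 603, beside 1600 in the main fit. In brain (0 of 12) there were 3 with array weights (3114 of all 11612 genes), whose estimation did not converge in every fit. With the lowest 60% left out, brain had no collagen to test. The causes were not tested. Leaving out 1 array gave 4 to 9 in muscle, 3 to 5 in visceral fat, 0 to 3 in subcutaneous fat, 0 to 3 in liver, 3 to 6 in kidney, 1 to 6 in spleen and 0 in brain. All genes called in these fits were 68 to 1150 in muscle, 1695 to 2361 in visceral fat and 126 to 525 in liver. In kidney they were 2114 to 2478, in spleen 579 to 2201 and in brain 15 to 69. At rest, collagens higher in muscle numbered 7 against visceral fat, 7 against subcutaneous fat and 22 against brain with normalization within tissues, and 6, 3 and 20 as deposited, with 15 against spleen; leaving out 1 array gave 12 to 16, 17 to 22, 21 to 26, 23 to 28, 29 to 31 and 31 to 35 against visceral fat, subcutaneous fat, liver, kidney, spleen and brain. Collagens whose difference was unequal between tissues numbered 9 with the F test in 1 fit (5322 of 14841 genes) and 8 as deposited (1614 of 14855 genes). Signs turned for genes that had not passed. Col4a2 swim minus control in visceral fat was -0.2377 as deposited, -0.3547 centred on medians (limma adjusted p = 0.0309), -0.07462 with array weights, and -0.08906 to 0.09645 leaving out 1 array (-0.007824 without swim array 5, -0.07687 without swim array 8). Leaving out 1 array, Col6a1 swim minus control in visceral fat was -0.1395 to 0.08619 (0.007097 without control array 3, 0.0167 without swim array 7), and Col4a1 swim minus control in visceral fat was -0.1796 to 0.01981. In kidney as deposited Col4a2 was 0.03036 and Col6a1 0.09645, and in muscle Col1a1 was 0.4329 and 0.1396 with the smooth muscle and macrophage covariates and Col6a1 0.02399 with the latter, and Col1a2 swim minus control in muscle was 0.7764 and 0.4554 with them. No paired analysis was possible because control and swim arrays share no replicate number.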
